A study of Mus musculus with 78 samples.

Results

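The genes described here are 42 mouse genes of the unfolded protein response and the integrated stress response, chosen by symbol as chaperones of the endoplasmic reticulum (ER), stress sensors and targets of the transcription factor ATF4. They are 42 of 36904 gene IDs in a table of soleus RNA from C57Bl/6 mice. All 42 were found and all 42 passed the filter on low counts, among 18218 genes tested. Soleus is a slow postural muscle of the hindlimb. Batch 1 held males at 6 (n = 6), 12 (n = 6), 20 (n = 9) and 28 months (n = 5), and females at 6 (n = 4), 12 (n = 6), 20 (n = 6) and 28 months (n = 6), all controls. Batch 2 held 28-month controls (10 males, 7 females) and 12 males of 28 months whose feed held 2% calcium alpha-ketoglutarate (CaAKG), the calcium salt of a metabolite of the Krebs cycle. No allele beyond the strain is given for any group. Mice of 6 and 12 months came from a supplier in Singapore and those of 20 months from one in the USA, and a separate cohort had entered at 17 months for the compound studies, so supplier and age cannot be told apart between 12 and 20 months.

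Secretory and membrane proteins fold in the ER with the help of chaperones. When unfolded protein accumulates there, the sensors IRE1 (gene Ern1), ATF6 and PERK (Eif2ak3) signal to the nucleus: ATF6 and the spliced form of XBP1 raise the transcription of chaperones and of the machinery that exports misfolded protein for degradation. PERK and the amino acid sensor GCN2 (Eif2ak4) phosphorylate the translation factor eIF2alpha, which slows protein synthesis and favours translation of ATF4, an activator of amino acid synthesis, amino acid uptake and the stress factor CHOP (Ddit3). Splicing of Xbp1, cleavage of ATF6, phosphorylation and translation of Atf4 are not read by the total RNA of a gene.

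The promoters of several chaperones hold the ER stress response element (ERSE), which reads CCAAT, then 9 bases of any kind, then CCACG, the site known for ATF6 binding with NF-Y. RefSeq promoters (GRCm38.p6) were at hand for 37 of the 42 members, not for Ppp1r15b, Manf, Hyou1, Slc7a5 and Atf6. Searched on both strands of the 250 bases before the start, ERSE occurred in 8 of these 37 members (21.6%). It occurred in 0.13% of all 27025 genes with a promoter (0.113% of 32851 promoters). The members were chosen as genes of this response, so these shares are a description and not a test. The windows below are all the ERSE matches found in members, most of which are chaperones of the results that follow. Each runs 5′ to 3′ along the gene's strand, the capitals mark the ERSE, and matches on the opposite strand run from CGTGG to ATTGG.
Hspa5 (chr2:34772015-34772053, plus strand): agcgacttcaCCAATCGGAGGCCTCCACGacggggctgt
Calr (chr8:84847065-84847103, minus strand): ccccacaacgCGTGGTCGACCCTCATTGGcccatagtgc
Canx (chr11:50325790-50325828, minus strand): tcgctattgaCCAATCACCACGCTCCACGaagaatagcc
Creld2 (chr15:88819510-88819548, plus strand): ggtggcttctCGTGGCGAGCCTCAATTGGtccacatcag
Dnajc3 (chr14:118937817-118937855, plus strand): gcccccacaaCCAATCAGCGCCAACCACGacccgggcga
Hsp90b1, first match (chr10:86705628-86705666, minus strand): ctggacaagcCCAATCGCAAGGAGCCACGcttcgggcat
Hsp90b1, second match (chr10:86705523-86705561, minus strand): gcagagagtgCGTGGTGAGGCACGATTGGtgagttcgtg
Pdia6 (chr12:17266481-17266519, plus strand): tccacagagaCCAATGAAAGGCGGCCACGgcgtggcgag
Syvn1 (chr19:6046522-6046560, plus strand): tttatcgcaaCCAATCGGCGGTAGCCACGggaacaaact
Herpud1 held the shorter ERSE-II (ATTGG, any 1 base, CCACG), found in 0.0304% of all promoters, and Nupr1 an ATF4 site (TGATGNAAT), found in 0.816%. The XBP1 site TGACGTGG was in none of the 37 windows and in 0.563% of all promoters.

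The 78 libraries held 19460397 to 81637554 counts (median 35209198), and 2 libraries of 1 animal were summed, which left 77 replicates. In 5 replicates Xist and the Y-linked genes went against the sex label: female replicate 3 and male replicate 3 at 6 months, and female replicates 1 and 4 and male replicate 3 at 12 months. Another 9 held over 100 CPM (counts relative to the library's total, which was scaled here by TMM factors except for sums of markers) of keratinocyte or of marrow markers, among them 3 of the 6 batch 1 females of 28 months and 4 of the 12 CaAKG males. Slow-fibre markers summed to 21058 CPM or more in every replicate but 1, the 12-month female replicate 4, where they summed to 9043 CPM and mitochondrial transcripts held 46.5% of the counts. Counts below are given with these sets in.

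Per kilobase of transcript, Atf4 was the most abundant member, with a median over replicates of 116 CPM per kb, followed by Atf5 with 86.6 and Cebpb with 70.1. Hspa5 (BiP, the main Hsp70 chaperone of the ER lumen), Xbp1 and Hsp90b1 (the ER form of Hsp90) lay close together at 67.4, 63.3 and 63.0 CPM per kb. At the other end stood the cystine transporter Slc7a11, which never exceeded 1.45 CPM in a replicate, and the stress-induced Sesn2 with 0.786 CPM per kb. Changes of Slc7a11 rest on a handful of counts.

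Chaperones of the ER lumen were lower in males at 12 than at 6 months. In this comparison 16 of 42 members fell and none rose, against 6.82% of all genes tested that fell and 3.04% that rose (9.86% in either direction). The ER chaperones and folding enzymes held 12 of the 16: Hspa5, Hsp90b1, Pdia4, Pdia6, Calr, Canx, Creld2, Manf, Sdf2l1, Dnajb11, Dnajc3 and Hyou1 fell, while Pdia3 and Dnajb9 did not pass. The median log2 change of these 14 genes was -0.67, against 0.02 over all genes tested.

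Hspa5 stood at 131.8, 171, 187.5, 188.8, 220.7 and 352.7 CPM in the 6-month males and at 80.2, 87.2, 110.6, 115.7, 131.6 and 215.1 CPM in the 12-month males. The highest value of each age was 1 animal far above the rest (replicate 1 at 6 months, replicate 3 at 12 months), and the groups overlapped through replicate 3. Hspa5 fell by 0.76 on the log2 scale (SE 0.20, adjusted p = 0.00727, edgeR quasi-likelihood test with Benjamini-Hochberg adjustment, as for every adjusted p here).

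Calr, a lectin chaperone that also binds calcium, ranged from 106.3 to 193.9 CPM (median 134.3) at 6 months and from 64.4 to 134 CPM (median 81.5) at 12 months. Replicate 3 alone among the 12-month males reached the 6-month range. Calr fell by 0.67 (SE 0.13, adjusted p = 0.000391), the smallest p of the members.

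Hyou1, the large Hsp70-like chaperone of the ER, ranged from 15.1 to 39.7 CPM (median 20.9) at 6 months and from 9.76 to 19.5 CPM (median 10.7) at 12 months. Its fall was 0.86 (SE 0.17, adjusted p = 0.000797). Creld2, a stress-induced ER protein, fell by 0.83 (adjusted p = 0.00153) and Pdia4, a disulfide isomerase, by 0.85 (adjusted p = 0.0114). Pdia6, of the same enzyme family, fell by 0.67 (adjusted p = 0.00376). Hsp90b1 fell by 0.60 (adjusted p = 0.0044), and the co-chaperones Dnajb11 and Dnajc3 by 0.45 (adjusted p = 0.00391) and 0.40 (adjusted p = 0.00791). Dnajb11 was the single member whose 6- and 12-month males did not overlap, which was so for 1.74% of all genes tested.

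Outside the chaperones the fall at 12 months took in the sensors Ern1 and Atf6, the transcription factor Atf5 and the mitochondrial folate enzyme Mthfd2. Ern1 ranged from 8.69 to 13.6 CPM at 6 months and from 4.85 to 9.37 CPM at 12 months, and fell by 0.67 (SE 0.15, adjusted p = 0.00175). The main transcription factors showed no such shift: Atf4 changed by -0.06 (SE 0.12, adjusted p = 0.816), Ddit3 by -0.11 (SE 0.19, adjusted p = 0.789) and Xbp1 by -0.03 (SE 0.13, adjusted p = 0.943). None of these 3 changes was larger than its spread.

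How many chaperones passed in males at 12 months depended on the control animals and on the fit. Without 6-month replicate 1, the highest in Hspa5, Hyou1, Calr and Sdf2l1, 6 of 14 fell (9 of 42 members), and that replicate also held 398 CPM of macrophage markers against 66.6 to 119 CPM in the others; the part of these cells was not tested. In 12-month males the median was higher than at 6 months for 10 of 10 endothelial, 10 of 10 macrophage, 8 of 8 adipocyte and 8 of 9 fibroblast markers, all detected in both groups. The endothelial sums were 116 to 229 CPM at 6 and 157 to 302 CPM at 12 months, those of macrophages 66.6 to 398 and 86.1 to 277 CPM, those of adipocytes 1426 to 2273 and 1868 to 3772 CPM and those of fibroblasts 403 to 803 and 559 to 1174 CPM. The ranges overlapped for each of these cell types, and their part in the fall was not tested. With only the 6- and 12-month males in the fit 1 of 14 passed (2 of 42), while 13 of 14 passed without the replicates against their sex label. Over all genes 480 and 3181 passed in these fits, and 1212 without 6-month replicate 1.

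In females no chaperone passed between the same ages. None of the 42 members passed, against 0.231% of all genes tested (0.0384% rose, 0.192% fell), and 1 had an unadjusted p under 0.05. DESeq2 and limma-voom also passed 0 members. Hspa5 changed by -0.18 (95% interval -0.61 to 0.24, adjusted p = 0.734), Atf4 by 0.06 (adjusted p = 0.878), Ddit3 by 0.17 (adjusted p = 0.739) and Xbp1 by 0.09 (adjusted p = 0.814). Calr ranged from 69.2 to 157.4 CPM in the 4 females of 6 months and from 85.2 to 143.3 CPM in the 6 females of 12 months, so that the groups overlapped almost wholly. The 2 ages overlapped in every member, and failed to overlap in 0.626% of all genes. The difference between the male and the female change, a test added after both were seen, passed for no member and for no gene (0%), with 10 members and 1869 genes at an unadjusted p under 0.05. The smallest of these were Psat1 (-1.75, adjusted p = 0.154) and Creld2 (-0.94, adjusted p = 0.159).

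**Figure D1:**
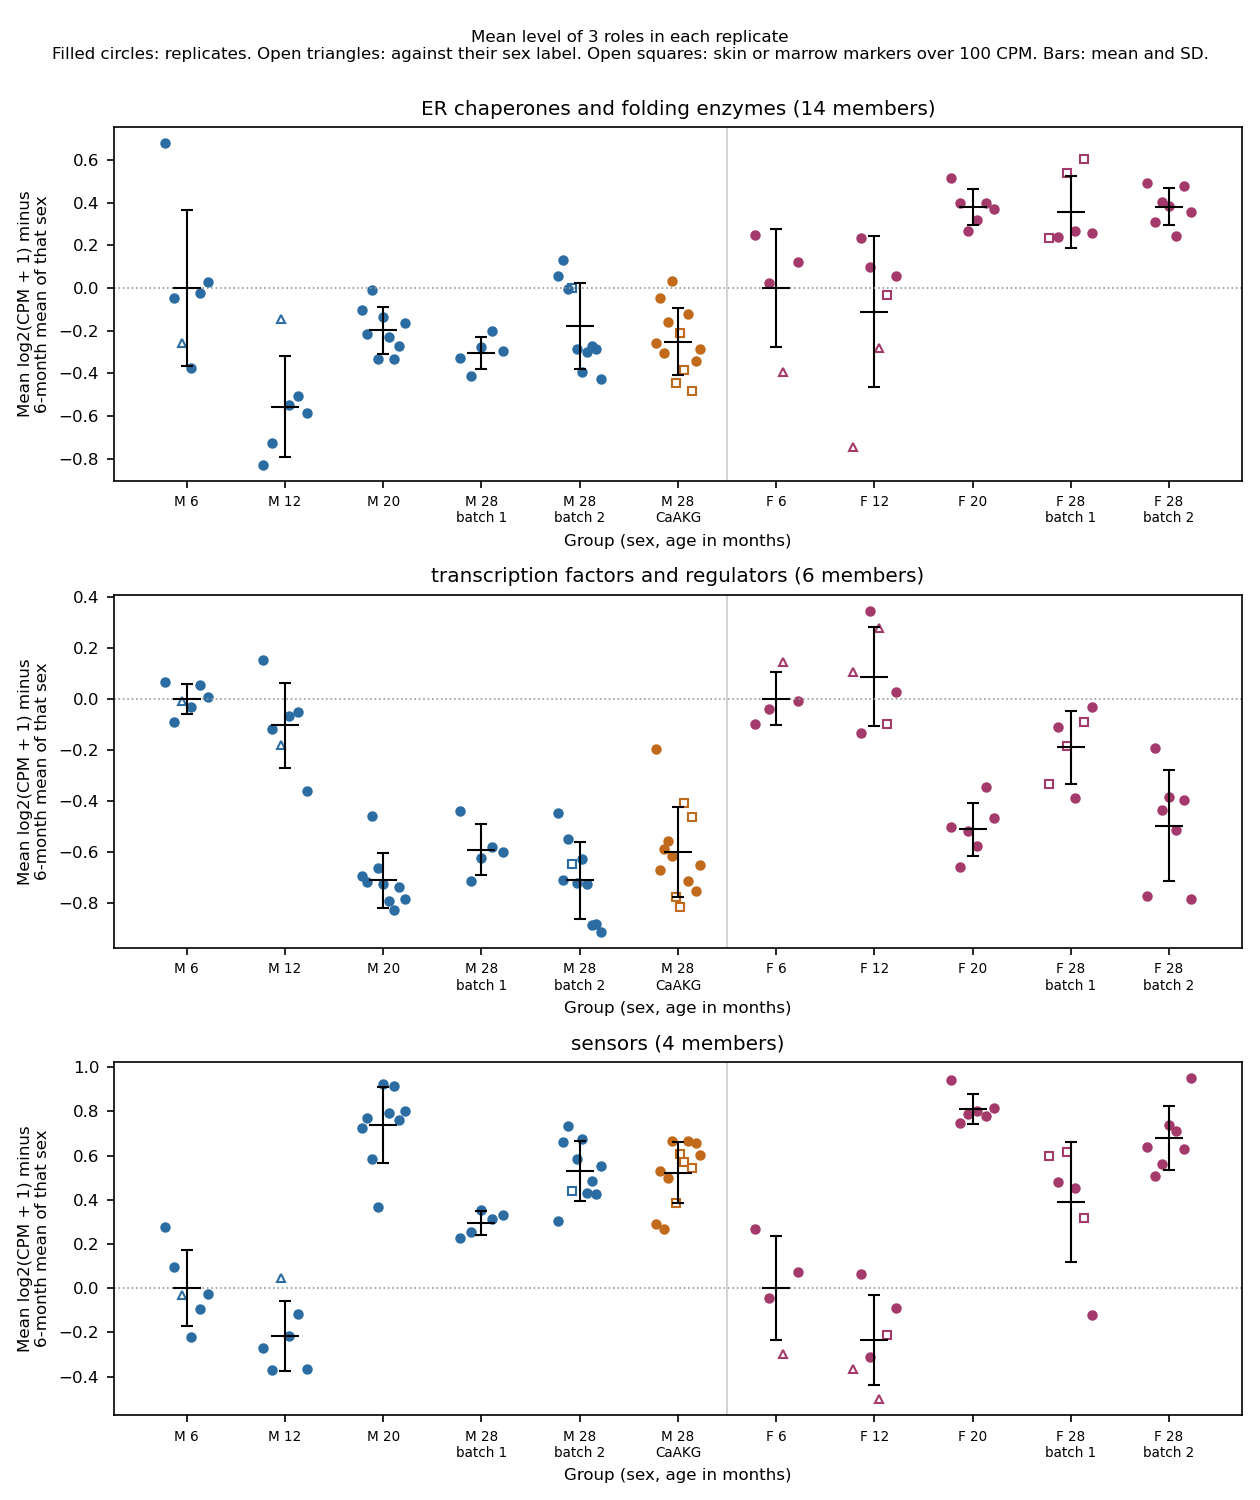
Mean log2(CPM + 1) of 3 roles in each replicate, minus the mean of the 6-month replicates of the same sex, for 11 groups by sex, age in months, batch and feed (bars: mean and SD). Chaperones averaged -0.56 in 12-month males, between 0.36 and 0.38 in females of 20 and 28 months, and from -0.30 to -0.18 in males of those ages, while the transcription factors lay below 0 in every group mean from 20 months on.

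Between 6 and 20 months the sensors Ern1 and Atf6 and the degradation genes Sel1l and Syvn1 rose in both sexes, and the transcription factors Atf4, Ddit3, Xbp1 and Cebpb fell in both. Of the 42 members 13 rose and 11 fell in males, against 44.6% of all genes tested, and 16 rose and 4 fell in females, against 36% of all genes. Rises made up 22.6% and 18.2% of all genes, and falls 22% and 17.8%, in males and females. The 6- and 20-month animals did not overlap in 13 members in males, against 24.9% of all genes, and in 17 in females, against 34.9%. The 20-month mice also came from another supplier, and long transcripts were higher than short ones: the Spearman correlation of log2 change with transcript length across genes, which are not independent, was 0.45 in males and 0.48 in females.

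Sel1l, the adaptor of the ubiquitin ligase that exports misfolded ER protein, ranged from 32.9 to 45.7 CPM (median 37.6) in 6-month males and from 75.1 to 108.8 CPM (median 86.7) in 20-month males. In females it stood at 25.9, 35, 39.7 and 51.7 CPM at 6 months and between 81.5 and 101.6 CPM (median 95.3) at 20 months. No 20-month animal came near a 6-month one, in either sex. Sel1l rose by 1.17 in males (SE 0.13, adjusted p = 6.93e-12) and by 1.2997 in females (SE 0.16, adjusted p = 1.23e-09).

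Atf6, the sensor that is itself a transcription factor, stood at 26.3 to 38.2 CPM in 6-month males and 52.2 to 75.8 CPM in 20-month males. In females it stood at 15.3, 29.3, 31.3 and 35 CPM at 6 months and between 63.4 and 94.9 CPM at 20 months. The ages did not overlap in either sex. Atf6 rose by 0.92 in males (SE 0.17, adjusted p = 2.64e-06) and by 1.45 in females (SE 0.21, adjusted p = 4.79e-08).

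Ern1, whose product splices the Xbp1 messenger, ranged from 15 to 24.9 CPM in the 20-month males, above the highest 6-month male at 13.6 CPM. It rose by 0.84 in males (SE 0.14, adjusted p = 2.66e-07) and by 0.95 in females (SE 0.17, adjusted p = 3.36e-06). The kinases Eif2ak3 and Eif2ak4 rose in males and did not pass in females. Ppp1r15b, the constitutive subunit that directs a phosphatase to eIF2alpha, had medians of 18.3 and 32.4 CPM in males of 6 and 20 months, with ranges that did not overlap, and rose by 0.78 (SE 0.11, adjusted p = 7.44e-09). In females it rose by 0.75 (SE 0.13, adjusted p = 3.74e-06).

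Atf4 itself was lower at 20 months. It ranged from 189 to 269.2 CPM (median 201.9) in 6-month males and from 99.1 to 143.4 CPM (median 118.5) in 20-month males. In females it stood at 160, 190.4, 206.3 and 248.6 CPM at 6 months and between 107 and 144.9 CPM (median 122.6) at 20 months. Every 20-month animal lay below every 6-month animal of its sex. Atf4 fell by 0.82 in males (SE 0.11, adjusted p = 4.86e-09) and by 0.71 in females (SE 0.14, adjusted p = 2.05e-05).

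Ddit3 (CHOP, a factor tied to cell death under lasting stress) followed the same order. It ranged from 41.8 to 67.2 CPM in 6-month males and from 20.6 to 37.7 CPM in 20-month males, and in females from 38.6 to 44.5 CPM and from 19.9 to 34.6 CPM. These ranges did not overlap either. Ddit3 fell by 0.99 in males (SE 0.17, adjusted p = 8.67e-07) and by 0.78 in females (SE 0.21, adjusted p = 0.00158). Its transcript overlaps the antisense end of Mars, and as the strand setting of the counting is not given here, reads of that stretch may belong to either gene.

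Xbp1 fell by 0.68 in males (SE 0.12, adjusted p = 1.11e-06) and by 0.39 in females (SE 0.14, adjusted p = 0.0273). Its range was 62.4 to 126.8 CPM (median 81.1) in 6-month males and 45.7 to 63.4 CPM (median 52.8) in 20-month males, with an overlap of the lowest young and the highest old animal. Cebpb, a factor that pairs with CHOP and ATF4, fell in both sexes, with medians of 149.1 and 72.7 CPM in males and 136.9 and 90.4 CPM in females of 6 and 20 months. Of the 6 transcription factors 5 fell in males and 4 in females, against 22% and 17.8% of all genes, and none rose.

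The chaperones differed in their counts of calls at 20 months. In females 8 of 14 rose and none fell: Hspa5, Hsp90b1, Pdia3, Pdia6, Calr, Canx, Dnajc3 and Hyou1. In males 2 of 14 rose, Canx and Dnajc3, and 4 fell, Creld2, Manf, Sdf2l1 and Dnajb11. Over all genes 18.2% rose and 17.8% fell in females, and 22.6% rose and 22% fell in males. With offsets for transcript length and GC the 2 male rises turned, Canx to -0.050 (adjusted p = 0.783) and Dnajc3 to -0.428 (adjusted p = 3.9e-05). Their median log2 change was 0.49 in females and -0.11 in males, against 0.002 and 0.024 over all genes.

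Hspa5 in females stood at 102.2, 163.3, 173 and 200.9 CPM at 6 months and between 238.1 and 336.2 CPM (median 283.4) at 20 months, without overlap. It rose by 0.84 in females (SE 0.22, adjusted p = 0.0017). In males the 20-month range of 193.4 to 299 CPM lay inside the 6-month range of 131.8 to 352.7 CPM, and the change was 0.18 (SE 0.18, adjusted p = 0.444). Canx, the membrane-bound lectin chaperone, rose by 0.94 in females (SE 0.17, adjusted p = 7.61e-06). Hyou1 rose by 1.04 (adjusted p = 1.62e-05), Hsp90b1 by 0.81 (adjusted p = 5.41e-05) and Dnajc3, an inhibitor of PERK and co-chaperone of BiP, by 0.56 (adjusted p = 7.68e-05).

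The falls in males were led by Creld2, Manf and Sdf2l1. Sdf2l1, a partner of BiP, ranged from 4.86 to 17.3 CPM (median 7.45) at 6 months and from 1.66 to 3.78 CPM (median 2.09) at 20 months, without overlap. It fell by 1.88 (SE 0.27, adjusted p = 1.29e-08). Creld2 fell by 1.33 (SE 0.16, adjusted p = 1.24e-10) and Manf, a secreted trophic factor of the ER, by 1.18 (SE 0.17, adjusted p = 9.11e-09).

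The difference between the sexes in the change from 6 to 20 months, also tested after both were seen, passed for no member and for no gene (0%), with 14 members and 844 genes at an unadjusted p under 0.05. Of those 14 members 11 were chaperones. The smallest p was that of Creld2, at a difference of -1.0003 (males minus females, adjusted p = 0.34).

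Markers of other cell types and transcript length moved with the 20-month changes. The summed level of 10 endothelial markers, none at 0 in any group, was 116 to 229 CPM in 6-month males and 561 to 776 CPM in 20-month males, and 157 to 379 and 547 to 706 CPM in females, with a higher median in 9 of 10 markers in males and 8 of 10 in females. In bulk tissue fewer cells of a type and less RNA per cell cannot be told apart, and the part of the endothelium in these changes was not tested. Adipocyte markers had a higher median in 8 of 8 in males and 7 of 8 in females (sums of 1426 to 2273 CPM at 6 and 2198 to 3563 CPM at 20 months in males, 2403 to 3715 and 3256 to 4396 CPM in females). Fibroblast markers did so in 7 of 9 and 8 of 9 (403 to 803 and 759 to 1347 CPM in males, 498 to 1120 and 954 to 1235 CPM in females), and macrophage markers in 9 of 10 and 5 of 10 (66.6 to 398 and 92.8 to 185 CPM, 43.8 to 201 and 105 to 153 CPM). The part of these cells was not tested either. With offsets for transcript length and GC, 6 members rose and 15 fell in males, and 7 rose and 1 fell in females. Of the 18218 genes tested 6838 passed in males and 4802 in females with these offsets, in either direction. Under these offsets Sel1l rose by 0.33 and 0.48 in males and females and Ern1 by 1.04 and 1.15. Atf6 rose by 0.56 in females and did not pass in males, Ppp1r15b passed in neither sex, and of the chaperones 3 of 14 rose in females and 6 of 14 fell in males, where none rose. Atf4 still fell, by 0.50 and 0.35, and Ddit3 fell by 0.57 in males and did not pass in females. As Atf4 was the 1 member that fell in females, Xbp1 and Cebpb did not pass there either. Without the replicates against their sex label 14 members passed in females, 12 higher and 2 lower, and the calls of Calr, Pdia6, Cebpb, Xbp1, Slc3a2 and Slc7a5 were lost.

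**Figure D2:**
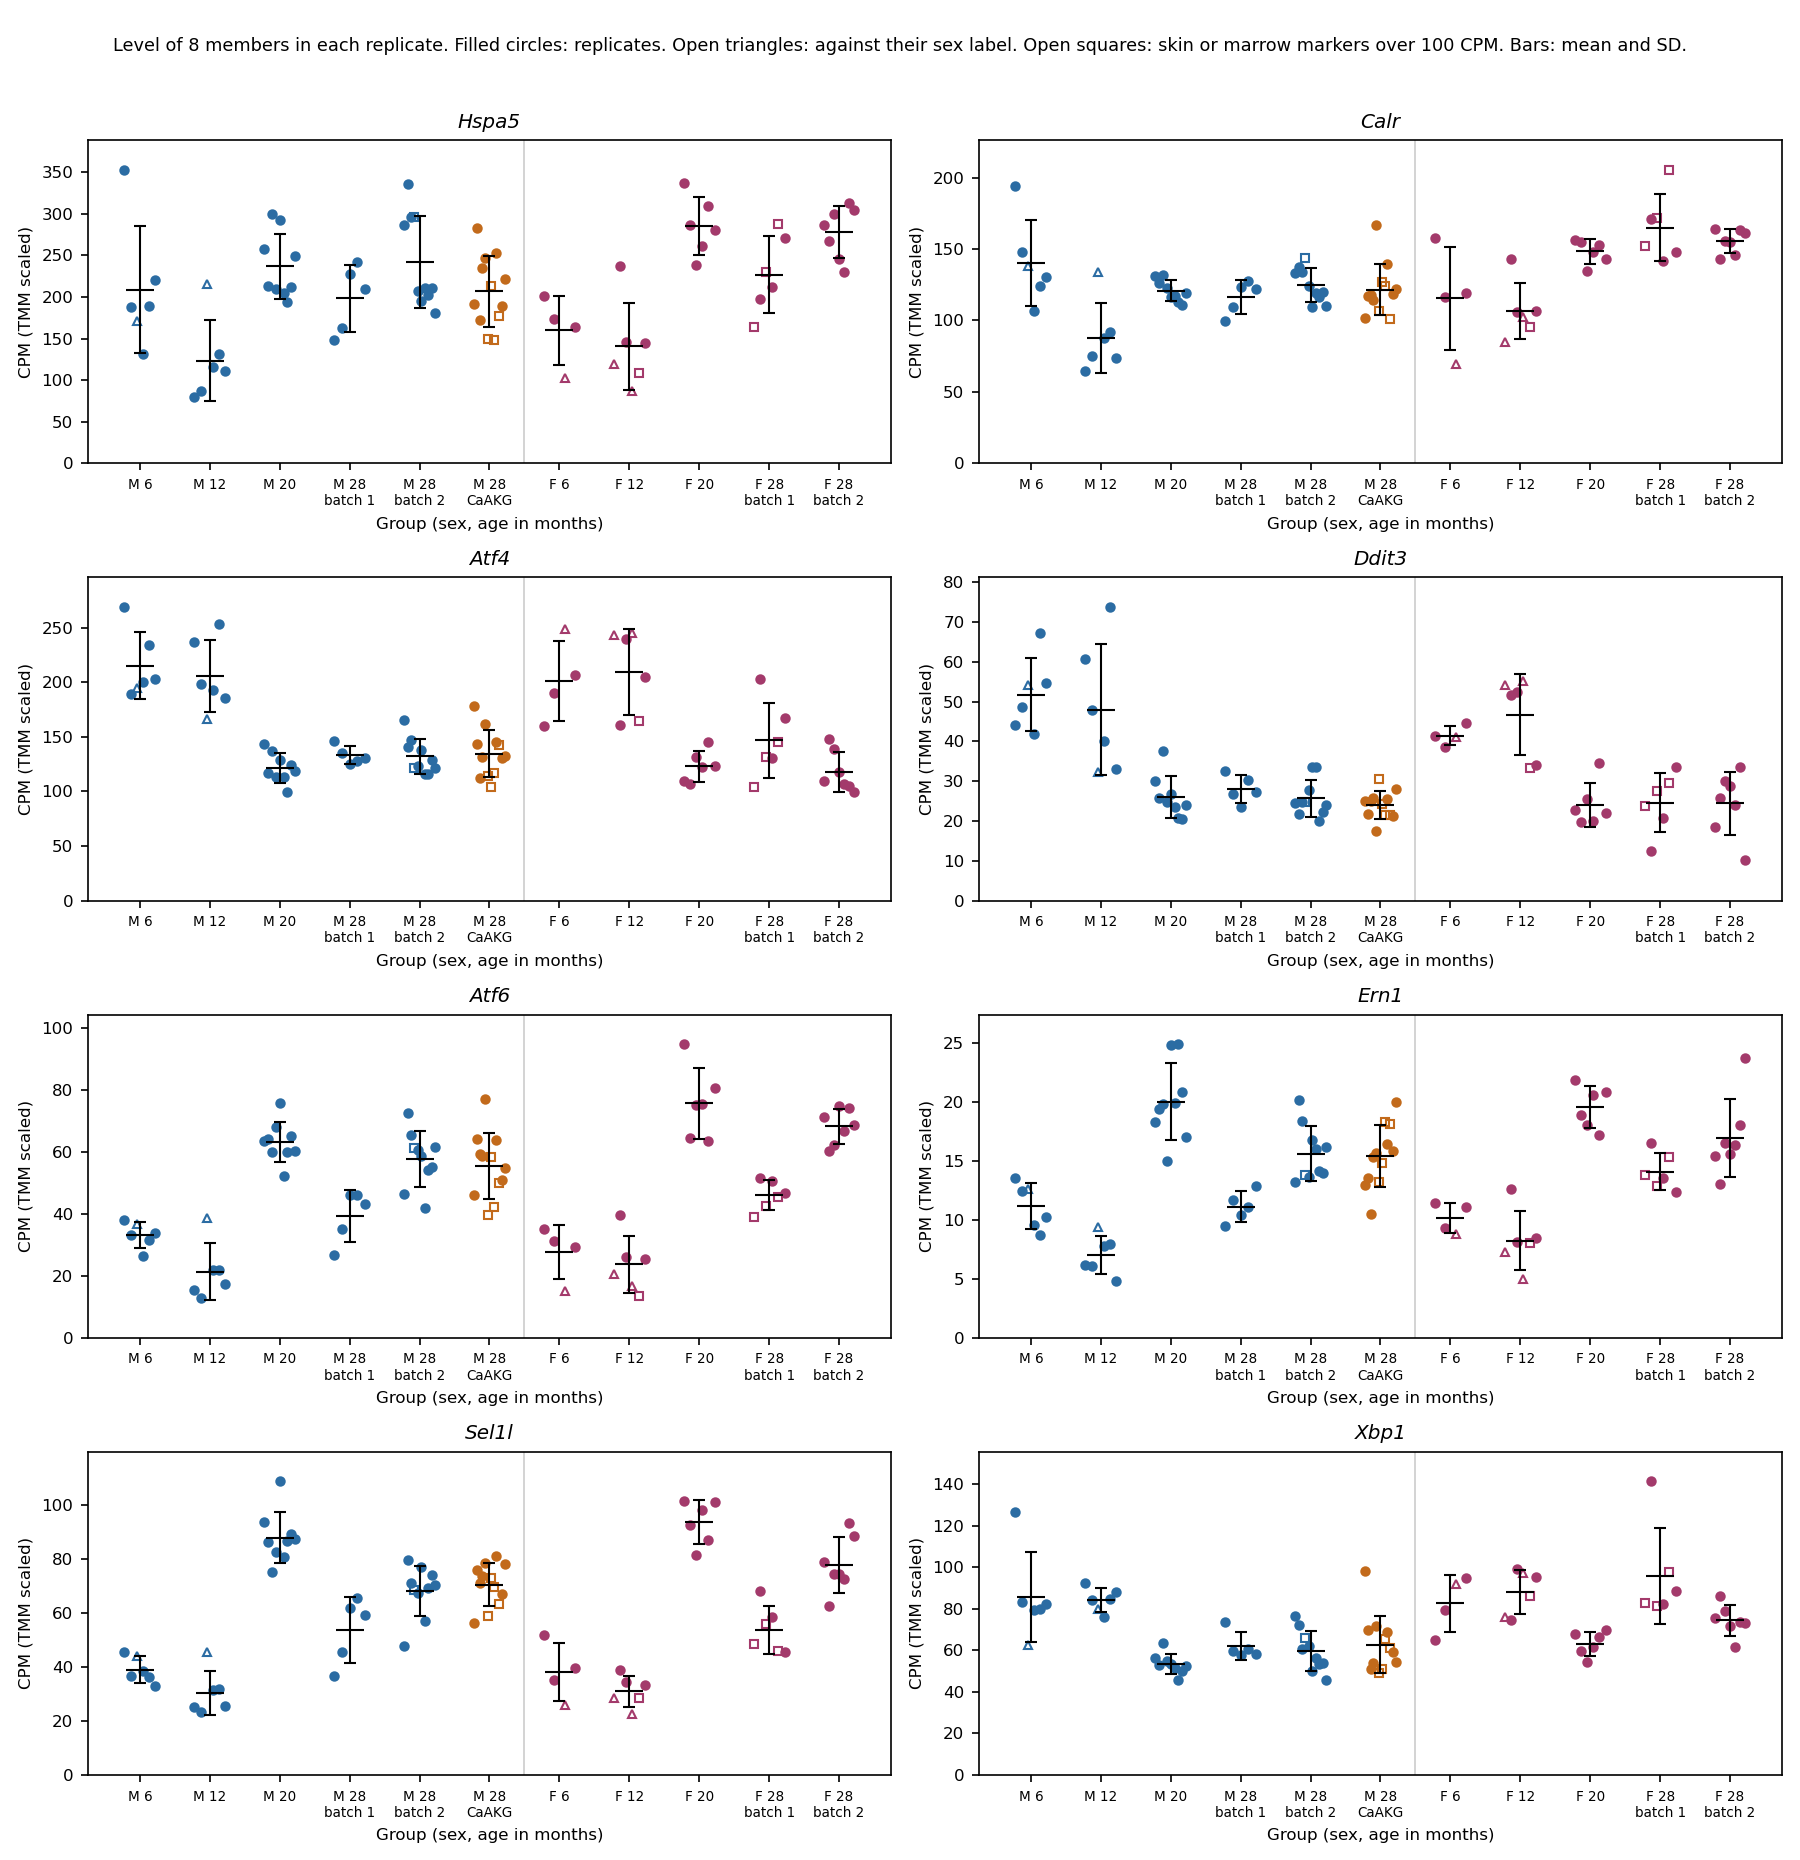
CPM of 8 members in each replicate of the 11 groups (one point a replicate, bars mean and SD, open triangles replicates against their sex label, open squares replicates with skin or marrow markers). The means of Atf4 and Ddit3 are lower in all groups of 20 and 28 months than at 6 and 12 months, whereas those of Atf6, Ern1 and Sel1l are highest at 20 months in both sexes.

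At 28 months Atf4 and Ddit3 again fell in both sexes. Only the batch 1 controls of 28 months (5 males and 6 females) entered the comparisons with 6 and 20 months. The 28-month values given with these comparisons are theirs unless batch 2 is named. In males 3 members rose and 8 fell, against 16.1% of all genes tested (6.76% rose, 9.38% fell). In females 15 rose and 2 fell, against 18.9% of all genes (9.91% rose, 9.04% fell). The median log2 change of the 42 was -0.153 in males and 0.425 in females, against 0.018 and 0.091 over all genes. The 28- and 20-month comparisons share their 6-month controls, so their changes are not independent. The Spearman correlation of log2 change with transcript length across genes was 0.30 in males and 0.27 in females. With offsets for length and GC 1 member rose and 9 fell in males, and 10 rose and 1 fell in females. Of the 18218 genes tested 2460 passed in males and 2660 in females with these offsets, in either direction. Of the 2 female falls, those of Atf4 and Ddit3, 1 was therefore lost. The 6- and 28-month animals did not overlap in 5 members in each sex, against 9.81% of all genes in males and 5.26% in females. The part of the mice's source in these changes was not tested.

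Atf4 stood at 125.4, 128.1, 130.3, 135.2 and 146.6 CPM in the batch 1 males of 28 months, all below the lowest 6-month male at 189 CPM. It fell by 0.69 (SE 0.13, adjusted p = 0.000257). In the batch 1 females of 28 months it ranged from 104.3 to 203.1 CPM (median 138.5). Their replicates 9 and 13, at 203.1 and 167.6 CPM, lay above the lowest 6-month female at 160 CPM. There Atf4 fell by 0.45 (SE 0.14, adjusted p = 0.0159), and this did not pass without 6-month female replicate 3 or without 28-month female replicate 8.

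Ddit3 stood at 23.4, 26.7, 27.3, 30.4 and 32.5 CPM in the batch 1 males of 28 months. It stood between 12.5 and 33.6 CPM in the batch 1 females of 28 months. Neither range touched that of 6 months. It fell by 0.88 in males (SE 0.20, adjusted p = 0.00152) and by 0.75 in females (SE 0.21, adjusted p = 0.00771). In males Xbp1 fell by 0.47 (adjusted p = 0.0126), which was lost without 6-month replicate 1, and Atf5, a relative of ATF4, fell by 0.52 (adjusted p = 0.0217). Xbp1 in females changed by 0.21 (SE 0.15, adjusted p = 0.309).

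Of the 14 chaperones, 3 fell in 28-month males and none rose, against 9.38% and 6.76% of all genes. Creld2 fell by 0.91 (SE 0.19, adjusted p = 0.000605), Manf by 0.86 (SE 0.20, adjusted p = 0.00161) and Sdf2l1 by 1.38 (SE 0.32, adjusted p = 0.00187). Sdf2l1 stood at 2.44, 2.88, 3.01, 3.77 and 4.52 CPM in these males, below all 6-month males. Hspa5, at 148.8, 163.2, 209.1, 227.3 and 242.3 CPM, changed by -0.08 (SE 0.20, adjusted p = 0.872). Mthfd2 fell by 1.24 (SE 0.29, adjusted p = 0.00202), with no overlap between 7.09 to 15.8 CPM at 6 months and 2.56 to 5.43 CPM at 28 months. The rises were Sel1l (0.46, SE 0.14, adjusted p = 0.0164), Eif2ak3 and Slc7a11, the last at a median of 0.336 CPM.

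Markers of other cell types were also higher in 28-month males. The endothelial sums of 278 to 534 CPM and the adipocyte sums of 3089 to 4267 CPM did not overlap those of 6-month males (116 to 229 and 1426 to 2273 CPM), with higher medians in 9 of 10 and 7 of 8 markers. The median share of mitochondrial transcripts was 22.5% at 6 and 16.8% at 28 months, with overlap. The part of these in the changes of the members was not tested.

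In 28-month females the rises reached chaperones, degradation genes and amino acid transport. The transporter genes Slc3a2 and Slc7a5, whose products pair as the exchanger of large neutral amino acids, led by p: Slc3a2 rose by 0.93 (SE 0.22, adjusted p = 0.00222) and Slc7a5 by 1.34 (SE 0.33, adjusted p = 0.00296). Slc7a5 ranged from 2.67 to 5.4 CPM at 6 months and from 6.51 to 19.3 CPM at 28 months, without overlap. Psat1, an enzyme of serine synthesis, rose by 1.43 (SE 0.38, adjusted p = 0.00541), from 3.75 to 5.91 CPM to 9.25 to 22.9 CPM.

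In 28-month females 6 of the 14 chaperones rose, Hsp90b1, Pdia3, Pdia4, Calr, Canx and Hyou1, against 9.91% of all genes. Calr stood at 69.2, 116.5, 119.4 and 157.4 CPM at 6 months and ranged from 141.8 to 205.5 CPM (median 161.4) at 28 months, with an overlap of 1 young animal. It rose by 0.51 (SE 0.14, adjusted p = 0.00849), and Hyou1 rose by 0.72 (SE 0.20, adjusted p = 0.00711). Hspa5 changed by 0.50 (SE 0.22, adjusted p = 0.0939). In the degradation machinery Syvn1, the ubiquitin ligase HRD1, rose by 0.55 (SE 0.15, adjusted p = 0.00699) and Sel1l by 0.50 (SE 0.15, adjusted p = 0.0158). Atf6 rose by 0.73 (SE 0.20, adjusted p = 0.00754) and Ppp1r15b by 0.43 (SE 0.13, adjusted p = 0.0155).

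The female rises rested on few young animals. Of the 4 females at 6 months, replicate 3, which went against its sex label, had the lowest Hspa5, Calr, Canx, Atf6 and Sel1l. Without it 4 of 42 members passed and 0 of 14 chaperones, and without replicate 2 the count was 11. Over all genes 1195 and 2216 passed in these fits. With only the 6- and 28-month females in the fit 0 members and 0 genes passed. Without the 3 old females with skin or marrow markers 9 members passed, 1 of them a chaperone, and 1984 of all genes. Plasma cell markers, 8 of 8 detected, summed to 141 to 405 CPM in 28-month replicates 8, 10 and 11. They summed to 3.65 to 15.1 CPM in replicates 9, 12 and 13 and to 3.30 to 7.91 CPM in the 6-month females. Medians at 28 months were higher for 7 of 8 plasma cell, 13 of 14 marrow, 9 of 10 macrophage and 9 of 10 endothelial markers. The same held for 8 of 8 adipocyte, 5 of 9 fibroblast and 3 of 12 keratinocyte markers. The part of the secretory plasma cells, and of the others, in the chaperone level was not tested. Slc3a2, Slc7a5, Syvn1, Atf6, Chac1 and Ddit3 were the 6 members that still passed without both sets of replicates.

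**Figure D3:**
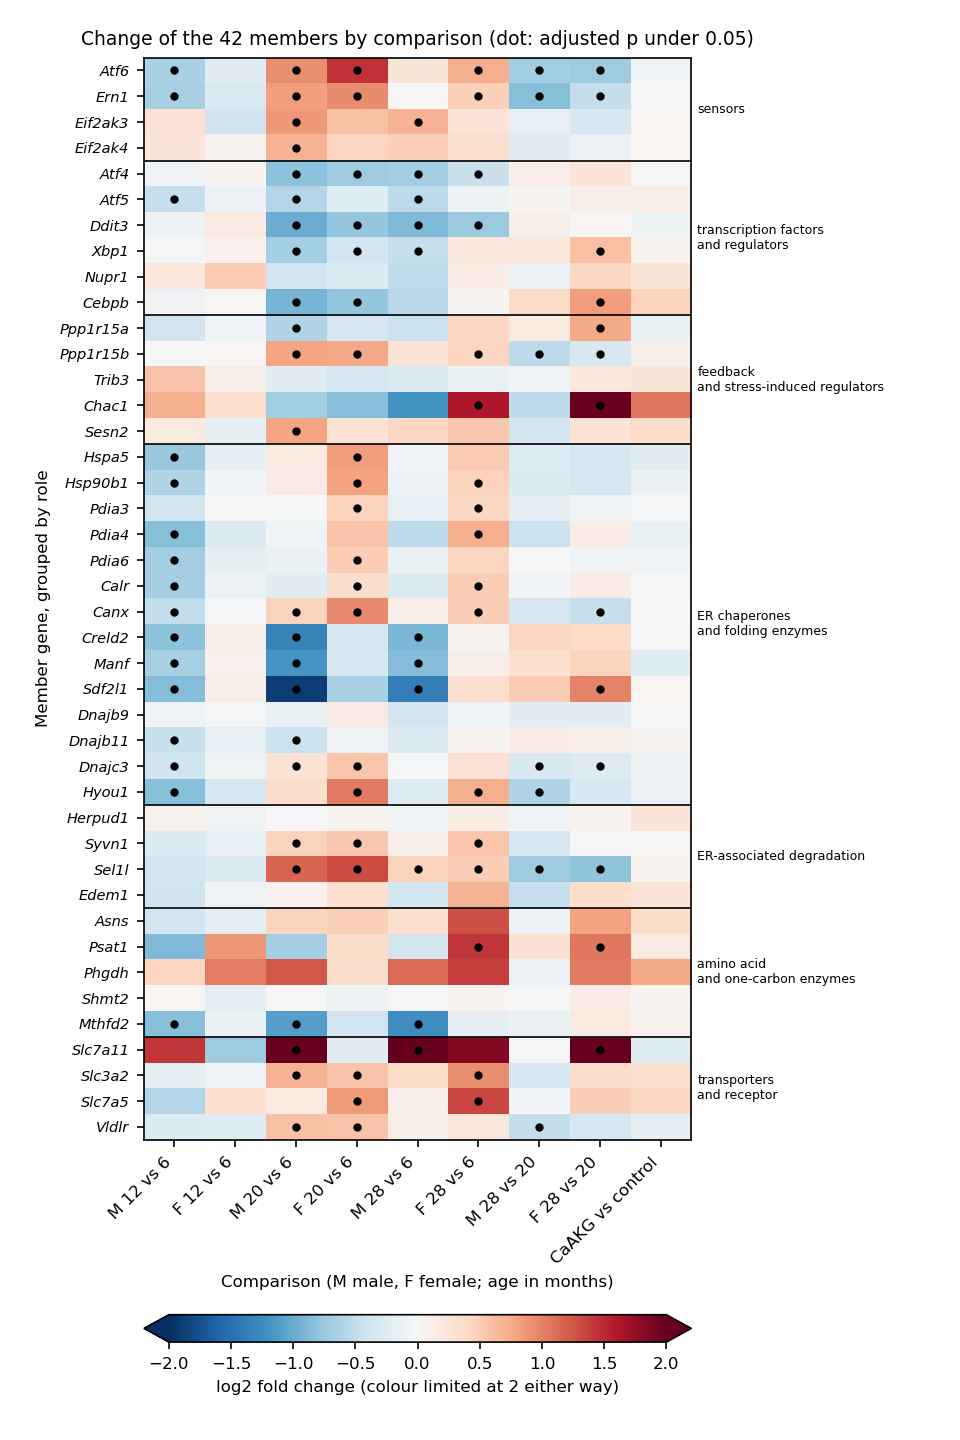
Log2 fold change of the 42 members (lines, grouped by role) in 9 comparisons (columns), with a dot where the adjusted p was under 0.05. Atf4 and Ddit3 are blue with a dot in the 4 comparisons of 20 or 28 with 6 months, 12 of the 14 chaperones have a blue dot in males at 12 months, and the CaAKG column has no dot.

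From 20 to 28 months Ern1, Atf6 and Sel1l fell in both sexes, with the batch 1 controls as the 28-month animals. In males 7 members fell and none rose, against 17% of all genes tested (8.27% rose, 8.78% fell). In females 7 rose and 6 fell, against 29.9% of all genes (17.3% rose, 12.6% fell). Ages did not overlap in 6 members in males (11.8% of all genes) and in 8 in females (11.3%). Here too the part of the mice's source was not tested. Ern1 fell by 0.85 in males (SE 0.14, adjusted p = 2.41e-05) from a range of 15 to 24.9 CPM to 9.51 to 12.9 CPM, without overlap. In females it fell by 0.48 (SE 0.14, adjusted p = 0.00918), again without overlap. Sel1l fell by 0.71 in males (SE 0.13, adjusted p = 0.000105) and by 0.80 in females (SE 0.13, adjusted p = 8.32e-06).

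Atf6 fell by 0.68 in males (SE 0.17, adjusted p = 0.00358) and by 0.72 in females (SE 0.18, adjusted p = 0.0015), and its 20- and 28-month animals did not overlap in either sex. Ppp1r15b fell by 0.52 in males (adjusted p = 0.000828) and by 0.32 in females (adjusted p = 0.0293), Dnajc3 by 0.30 (adjusted p = 0.0264) and 0.26 (adjusted p = 0.0441). Males also showed falls of Hyou1 (0.61, adjusted p = 0.00789) and Vldlr, a lipoprotein receptor (0.48, adjusted p = 0.00987). With length and GC offsets 1 member, Ern1, still fell in males, by 0.97, and 2 in females, Ern1 by 0.575 and Sel1l by 0.276, while Dnajc3 was at 0.235 (adjusted p = 0.068) and Ppp1r15b at 0.143 (adjusted p = 0.345) in females. In either direction 1 member passed in males and 9 in females with these offsets, against 1387 and 3828 of the 18218 genes tested. Without the females with skin or marrow markers 5 members rose and 4 fell, 7 of them among the 13 calls, and the falls of Ern1 and Dnajc3 did not pass. Over all genes 4213 passed in that fit. The endothelial markers came down too in batch 1, to 278 to 534 CPM in males and 117 to 490 CPM in females of 28 months. In batch 2 they summed to 321 to 670 CPM in males and 456 to 859 CPM in females. In batch 1, males and females had higher medians at 28 months in 1 of 9 and 1 of 9 fibroblast and 2 of 8 and 3 of 8 adipocyte markers. The same held for 0 of 10 and 6 of 10 macrophage, 3 of 14 and 14 of 14 marrow, and 3 of 8 and 7 of 8 plasma cell markers. The part of these cells was not tested.

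Atf4 did not pass from 20 to 28 months: its change was 0.13 in males (SE 0.12, adjusted p = 0.551) and 0.26 in females (SE 0.12, adjusted p = 0.111). Ddit3 changed by 0.11 (SE 0.18, adjusted p = 0.779) and 0.03 (SE 0.19, adjusted p = 0.919), and Hspa5 by -0.26 (adjusted p = 0.426) and -0.33 (adjusted p = 0.198). Xbp1 rose in females by 0.60 (SE 0.13, adjusted p = 0.000372), from 54.2 to 69.6 CPM to 81.5 to 141.5 CPM without overlap, and changed by 0.21 in males (SE 0.12, adjusted p = 0.265). Other rises in the batch 1 females of 28 months included Chac1, an enzyme that degrades glutathione and a target of ATF4 and CHOP. Chac1 rose by 2.47 (SE 0.53, adjusted p = 0.000317). Ppp1r15a, the inducible partner of Ppp1r15b, rose by 0.75 (adjusted p = 0.00148), Cebpb by 0.83 (adjusted p = 0.00309) and Sdf2l1 by 0.99 (adjusted p = 0.0088). Chac1 in the batch 1 females of 28 months ranged from 3.64 to 98.7 CPM (median 21.5), the top value being replicate 9, which was also highest in Xbp1, Cebpb and Atf4. In the batch 2 females of that age Chac1, Ppp1r15a, Cebpb and Xbp1 were called lower than in batch 1. Batch 2 females were not tested against those of 20 months.

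The change from 6 to 28 months differed between the sexes in 1 member. The log2 change of Calr in males minus that in females was -0.78 (SE 0.20, adjusted p = 0.0496), against 0.329% of all genes tested. Every member but 3 had a negative difference (males minus females), with a median of -0.525, where the median over all genes was -0.045. Hspa5 differed by -0.58 (SE 0.30, adjusted p = 0.437), Xbp1 by -0.68 (SE 0.20, adjusted p = 0.0963), Atf4 by -0.24 (adjusted p = 0.669) and Ddit3 by -0.14 (adjusted p = 0.904). The call of Calr was lost when any of 11 single replicates was left out, and DESeq2 passed 9 members.

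Between the batch 2 controls of 28 months, males had lower Atf5 than females and no other member passed, against 1.3% of all genes tested (0.917% higher and 0.379% lower in males). The sexes overlapped in all 42 members, and did not in 0.593% of all genes. Atf5 ranged from 96 to 153.9 CPM (median 127.5) in the 10 males and from 121 to 207.2 CPM (median 172.9) in the 7 females, with overlap, and was lower by 0.48 on the log2 scale (log2 change -0.48, SE 0.13, adjusted p = 0.0444). Hspa5 differed by -0.20 (SE 0.17, adjusted p = 0.643), Xbp1 by -0.32 (SE 0.11, adjusted p = 0.137), Atf4 by 0.16 (adjusted p = 0.533) and Ddit3 by 0.08 (adjusted p = 0.889). The Atf5 call was lost in 11 of the 17 fits that leave out 1 replicate.

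Each batch held controls of 28 months. In males no member differed between batches, against 1.02% of all genes tested (0.818% higher, 0.198% lower in batch 2), with 9 members at an unadjusted p under 0.05 and 4 passing in DESeq2. The nearest was Ern1, at 0.49 (batch 2 minus batch 1, SE 0.14, adjusted p = 0.0582). The batches did not overlap in Ern1 and Hyou1, 2 members, against 2.48% of all genes. Atf4 ranged from 116.1 to 165.9 CPM (median 126.1) in batch 2 males, and Ddit3 from 20 to 33.7 CPM (median 24.7). Both lay below every 6-month male, all of which were in batch 1. In males Hspa5 differed between batches by 0.29 (SE 0.19, adjusted p = 0.518) and Xbp1 by -0.06 (adjusted p = 0.916).

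In females 9 members differed between batches, 3 higher and 6 lower in batch 2, against 19.8% of all genes tested (6.75% higher, 13% lower). The batches did not overlap in 2 members, Atf6 and Vldlr, against 3% of all genes. Sel1l was higher by 0.54 (SE 0.13, adjusted p = 0.00304), Vldlr by 0.50 (adjusted p = 0.00707) and Atf6 by 0.57 (adjusted p = 0.0132). None of these 3 passed without the replicates with skin or marrow markers (adjusted p = 0.0762, 0.113 and 0.134), where 6 members were lower and 0 higher, nor with length and GC offsets, where 5 were lower and 0 higher. Over all genes 2705 and 2647 passed in these fits. Chac1 was lower (log2 change -1.98, SE 0.49, adjusted p = 0.00361), as were Ppp1r15a, Cebpb, Herpud1, Nupr1 and Xbp1. Without batch 1 replicate 9 the count was 5. Hspa5 (0.29, adjusted p = 0.279), Atf4 (-0.32, adjusted p = 0.0511) and Ddit3 (-0.01, adjusted p = 0.975) did not pass.

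With CaAKG no gene of the pathway rose or fell past the threshold. None of the 42 members passed, against 0.0659% of all genes tested, and 4 members had an unadjusted p under 0.05 (DESeq2 and limma-voom also passed 0). Atf4 ranged from 104.3 to 177.9 CPM (median 132.1) in the 12 treated males and from 116.1 to 165.9 CPM (median 126.1) in the 10 controls, so that the groups lay over each other. Its change was 0.03 (95% interval -0.16 to 0.21, adjusted p = 0.994). Ddit3 changed by -0.10 (95% interval -0.38 to 0.17, adjusted p = 0.993) and Xbp1 by 0.07 (95% interval -0.12 to 0.26, adjusted p = 0.993).

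Hspa5 ranged from 147.7 to 282.5 CPM (median 202.2) on CaAKG and from 180.7 to 335.9 CPM (median 210.4) in controls. Its change was -0.23 (95% interval -0.51 to 0.05, adjusted p = 0.875). The chaperones as a role had a median change of -0.05, with a range of -0.24 to 0.06, where all genes had a median of 0.015. The 4 members with the smallest p were Herpud1, an ER membrane protein of the degradation pathway (0.25, SE 0.09, adjusted p = 0.413), Cebpb (0.45, adjusted p = 0.508), Chac1 (1.05, adjusted p = 0.525) and Slc3a2 (0.31, adjusted p = 0.674). Chac1 ranged from 4.85 to 24.5 CPM with CaAKG and from 1.90 to 13.5 CPM without.

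**Figure D4:**
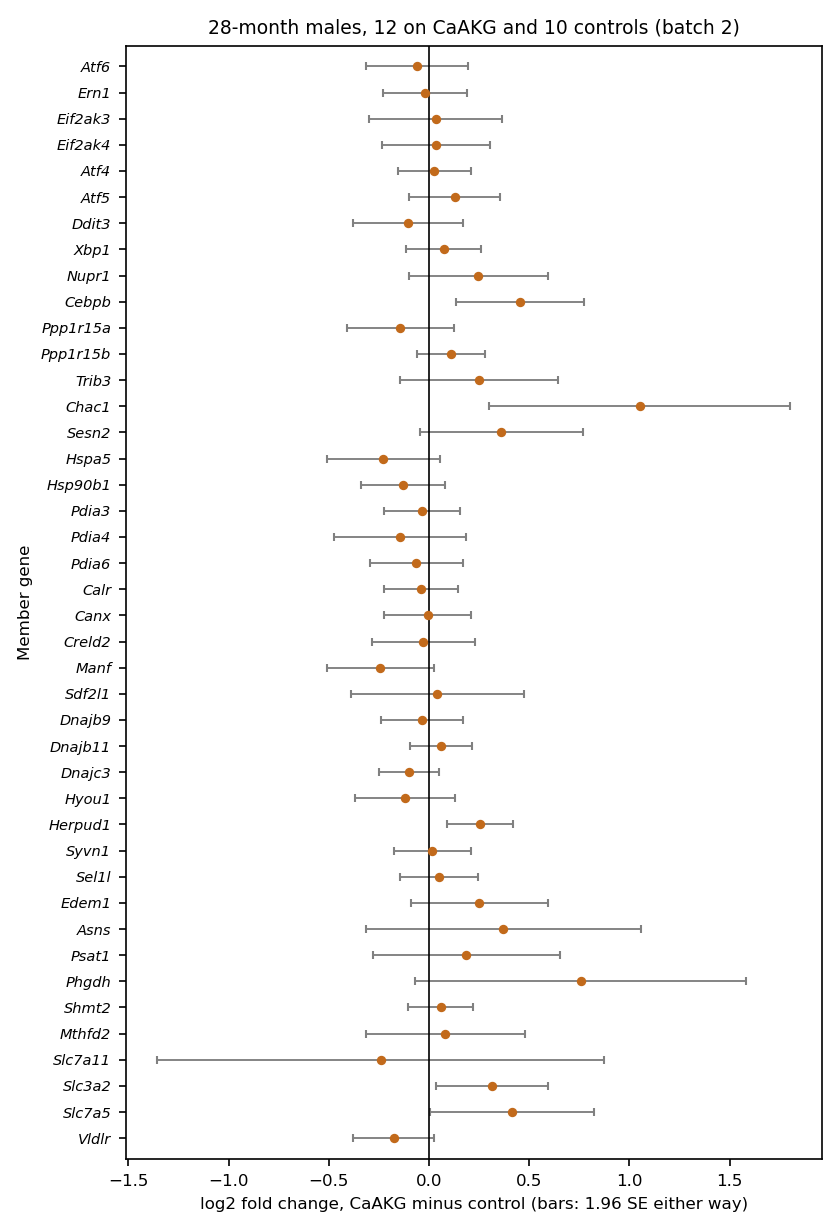
Log2 fold change of the 42 members between 12 males on CaAKG and 10 controls of 28 months (points, with bars of 1.96 SE either way). The intervals of the 14 chaperones all cover 0, and the widest bars belong to genes of few counts such as Slc7a11 and Phgdh.

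Within groups Hspa5 and Hsp90b1 varied together. After each group's mean was subtracted, Hspa5 and Hsp90b1 correlated over 77 replicates with r = 0.856 and rho = 0.845 (permutation p = 1e-05 for both, the smallest that 100000 permutations can give, adjusted p = 4e-05 over 4 pairs). Without the 2 replicates farthest from the median of Hspa5 r was 0.845, and it was 0.88 in batch 1 and 0.78 in batch 2. Beyond the 4 pairs no gene pairs were correlated, so the usual r between genes is not known here. Offsets for length and GC were not tried for correlations. Hspa5 and Atf4 gave r = 0.05 (permutation p = 0.69, adjusted p = 0.69) and rho = 0.14 (permutation p = 0.26), with r = -0.10 in batch 1 and 0.39 in batch 2.

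Atf4 and Ddit3 gave r = 0.23 (permutation p = 0.083, adjusted p = 0.11) and rho = 0.30 (permutation p = 0.017, adjusted p = 0.027), and r was 0.37 without the 2 farthest replicates. Its values within batches were r = 0.325 in batch 1 and r = 0.085 in batch 2. Atf4 and Asns (asparagine synthetase, a known ATF4 target) gave r = -0.35 (permutation p = 0.011, adjusted p = 0.022) and rho = -0.30 (permutation p = 0.02, adjusted p = 0.027), r = -0.33 without the 2 farthest and r = -0.41 and -0.24 in batches 1 and 2. Without the replicates against their sex label and those with skin or marrow markers this r was -0.044. Asns lay under 10 CPM throughout.

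**Figure D5:**
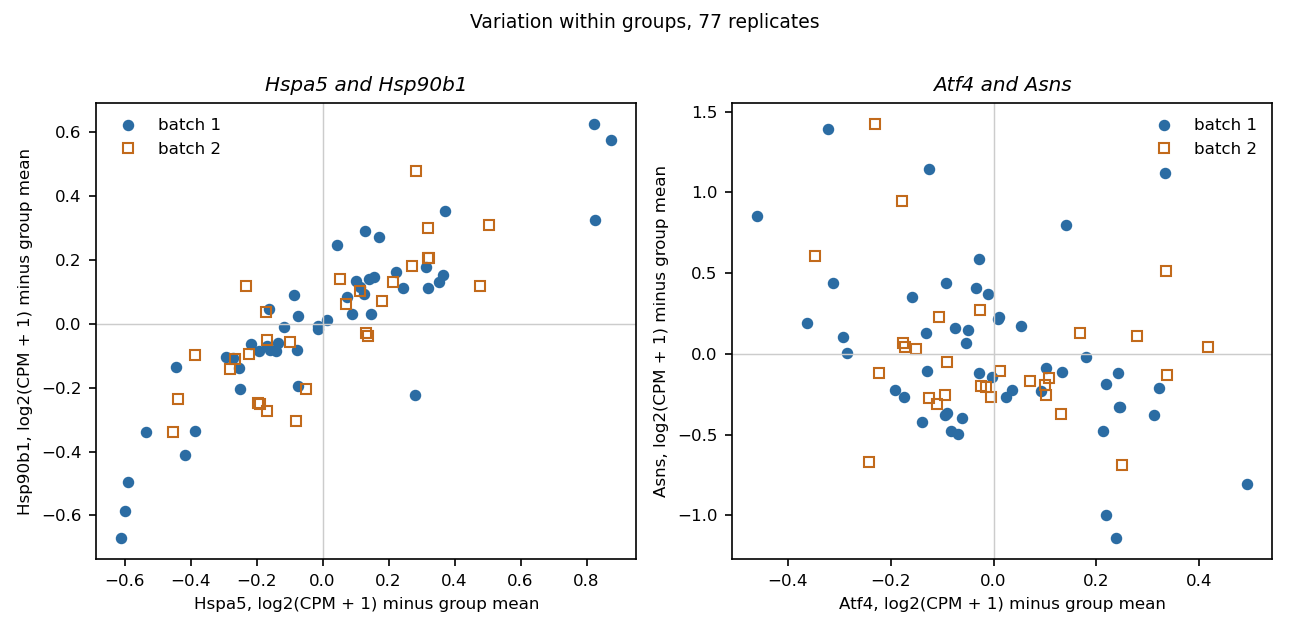
Log2(CPM + 1) minus the group mean for Hspa5 and Hsp90b1 (left) and for Atf4 and Asns (right), 1 point for each of 77 replicates, filled for batch 1 and open for batch 2. The chaperone pair lies along a rising line (r = 0.86), while the points of Atf4 and Asns scatter widely (r = -0.35).

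Members with and without an ERSE can be set side by side, although most of the 8 with a match are chaperones. In 12-month males 7 of 8 with a match fell, at a median of -0.64, and 6 of 29 without one fell, at a median of -0.11, against 6.82% of all genes. In females at 20 months 7 of 8 with a match rose (median 0.55) and 5 of 29 without one (median 0.07), against 18.2% of all genes. At 28 months 4 of 8 rose in females (median 0.47) and 7 of 29 without a match (median 0.32), against 9.91% of all genes. In males at 20 months 3 of 8 rose and 1 fell (median 0.17), and of the 29 others 8 rose and 9 fell (median -0.08), against 22.6% and 22% of all genes. In males at 28 months 0 rose and 1 fell (median -0.09), and of the others 3 rose and 6 fell (median -0.30), against 6.76% and 9.38%. Creld2, whose window is printed above with those of Hspa5 and Calr, was the match that fell in both male comparisons. These counts by match are of the main fit and were not read under other settings. With length and GC offsets 7 of all 42 members rose in 20-month females, and the change of Dnajc3, which holds a match, reversed. At 28 months 0 of 14 chaperones passed in females without 6-month female replicate 3. A match is a description of the sequence and says nothing of binding in these muscles.

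Genes of the same pathways that are not members were read from 5 lists, 127 of which were tested. In 12-month males 3 of 127 rose and 14 fell, against 3.04% and 6.82% of all genes, and of 41 genes of ER translocation, folding and glycosylation 1 rose and 4 fell. Those included Stt3b, a catalytic subunit of oligosaccharyltransferase (-0.61, adjusted p = 0.0033), Ssr1, of the translocon (-0.35, adjusted p = 0.00767), and Prkcsh, a subunit of glucosidase II (-0.45, adjusted p = 0.0118). Among 21 genes of ER-associated degradation 1 rose and 5 fell, with Selenos, a selenoprotein of the retrotranslocation complex, at 0.84 (adjusted p = 0.00191).

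At 20 months 30 of the 127 rose and 40 fell in males, against 22.6% and 22% of all genes, and 31 rose and 30 fell in females, against 18.2% and 17.8%. Creb3l2, a membrane-bound transcription factor related to ATF6, rose by 1.08 in males (adjusted p = 2.69e-13) and by 1.23 in females (adjusted p = 6e-11). Edem3, a mannosidase of the degradation pathway, rose by 1.09 and 1.32, and Selenok, a small selenoprotein of the ER membrane, fell by 0.80 and 0.85. Eif2b1 and Eif2b4, which encode subunits of eIF2B, the exchange factor that eIF2 phosphorylation blocks, fell by 0.65 and 0.81 in males and by 0.61 and 0.61 in females. Across all genes the log2 change at 20 months went with transcript length (Spearman correlation 0.45 in males and 0.48 in females). Offsets for length and GC were not read for single genes outside the members in any comparison. The part of transcript length in the changes of these genes was therefore not tested.

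At 28 months 5 of the 127 rose and 19 fell in males, against 6.76% and 9.38% of all genes, and 21 rose and 13 fell in females, against 9.91% and 9.04%. Ddit4, a stress-induced inhibitor of mTORC1, rose by 2.40 in males (adjusted p = 8.4e-05) and by 2.14 in females (adjusted p = 0.00125). Vegfa, the vascular growth factor and a known ATF4 target, fell by 0.76 (adjusted p = 0.00161) and 0.94 (adjusted p = 0.000369). The part of transcript length in the changes of Ddit4 and Vegfa was not tested either. Of 13 tRNA synthetases 0 rose and 2 fell in males, and 2 rose and 0 fell in females. With CaAKG none of the 127 passed, and 7 had an unadjusted p under 0.05.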

How the data were processed

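Soleus RNA of 78 libraries was sequenced as paired ends of 150 bases, per the labels' protocols. The deposited table held expected counts per gene, made by the authors with FastQC, STAR 2.7.11b and RSEM 1.3.3 on mm10, per the submitters' processing notes; which annotation, strand setting and filters were used is not given in the sources used here. Another 55 columns matched no sample label and were not used. Of the values 8.99% were not whole (tolerance 1e-06), and counts were rounded here.

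Totals ran from 19460397 to 81637554 counts per library, and 2 libraries of 1 animal tag were summed. No replicates were near copies: the smallest chi-square per gene among 2926 pairs was 14.33 and the median 141.1. Genes kept by filterByExpr (minimum count 10, total 15) were fitted with edgeR 4.0.16 (quasi-likelihood, TMM factors, 11 group means) in R 4.3.3, with Benjamini-Hochberg adjustment over all 18218 genes and a threshold of 0.05. CPM are TMM-scaled, and intervals are the estimate with 1.96 SE either way. Where the labels do not say that replicates were separate animals, p-values measure only the spread between samples. DESeq2 1.42.0, limma 3.58.1 (voom with quality weights), other factors and filters, offsets for length and GC, fewer groups, a replicate block and leaving out each replicate were tried. Leaving out the replicates whose sex genes went against the label, or those holding keratinocyte or marrow markers, and the tests of sex differences at 12 and 20 months, were added after seeing the data. The scripts were tested on simulated data.

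Members and gene lists were chosen with earlier results of these data known. Named with a change in each comparison were Atf4, Ddit3, Xbp1, Hspa5 and up to 10 members of smallest p past the threshold, and up to 3 genes of smallest p from each list of other pathway genes. One gene that this rule names is not reported here. Values by replicate were planned for the 14 members called most often; those of Hspa5, Mthfd2, Slc7a5, Psat1, Chac1, Atf5 and Asns, and other members outside the rule, were chosen after their values were seen. Ddit3 had 2 gene IDs, of which ENSMUSG00000025408 was used.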

Additional observations from a re-analysis of the deposited data

Results flagged for a closer look

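Among 140 groups of 4 to 10 replicates over 14 members, 12 held a replicate standing apart by Dixon's criterion, which chance gives in about 1 in 20 groups. In 6-month males replicate 1 stood highest in Ppp1r15b (27.1 CPM, others 15.1 to 18.6), Xbp1 (126.8 CPM, others 62.4 to 83.3), Sdf2l1 (17.3 CPM, others 4.86 to 8.69) and Hyou1 (39.7 CPM, others 15.1 to 22.2). The 28-month batch 1 female replicate 9 stood highest in Xbp1 (141.5 CPM, others 81.5 to 97.9) and Cebpb (273.7 CPM, others 104.7 to 165.9). The 12-month male replicate 3, which went against its sex label, had 38.8 CPM of Atf6, where the others had 12.9 to 22.05 CPM.

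Single values stood apart in 5 other groups. Xbp1 was 73.8 CPM in the 28-month male replicate 11 of batch 1 (others 57.6 to 60.5). Calr was 143.3 CPM in the 12-month female replicate 2 (others 85.2 to 106.5). Cebpb was 177.1 CPM in the 28-month female replicate 2 of batch 2 (others 63.3 to 99.0) and 112.9 CPM in the 20-month male replicate 4 (others 65.2 to 87.5). Vldlr was lowest in the 20-month female replicate 3, at 133.8 CPM (others 160.5 to 174.9).

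The change of Calr from 6 to 28 months differed between the sexes by -0.78 on the log2 scale (males minus females, SE 0.20, adjusted p = 0.0496, edgeR). This call was lost without the replicates against their sex label, and also without those with skin or marrow markers.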

How the results depend on the processing

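Counts of members called under other settings, most of them over 1.5 times apart, were as follows, and the cause was not tested. The numbers of all genes passing in the same fits follow in the same order, except where 1 replicate was left out. The genes kept by the filter can differ between these fits. With limma-voom the count was 17 for males at 28 against 6 months and 17 against 20 months, 11 for males against females, 8 and 3 for the male and female batches and 4 for the difference of the sexes at 28 months. Over all genes 5376, 6584, 1792, 2952, 1271 and 40 passed. DESeq2 gave 4 for the male batches and 9 for the difference of the sexes (670 and 286 of all genes). A test against a fold of 1.2 gave 6 (males) and 6 (females) at 28 months, 4 in males at 12 months, 2 and 8 from 20 to 28 months, 0 for males against females, 1 for the female batches and 0 for the difference of the sexes. That test passed 753, 1287, 285, 689, 2785, 31, 1340 and 30 of all genes. With only the compared groups the counts were 0 (females at 28 months), 2 (males at 12), 15 (males, 28 against 20), 7 (males against females), 5 (male batches) and 0 (difference of the sexes). Of all genes 0, 480, 5223, 730, 1488 and 0 passed. Offsets for length and GC gave 11 in females at 28 and 8 at 20 months, 1 in males from 20 to 28 months, 5 for the female batches and 2 for the difference of the sexes. Among all genes 2660, 4802, 1387, 2647 and 89 passed. Without a filter the counts were 11 in females at 28 months, 0 for males against females and 0 for the difference of the sexes, a minimum count of 50 gave 1 for the male batches, and leaving out the mitochondrial genome gave 2 for the difference of the sexes. The genes passing there numbered 2679, 136, 39, 286 and 92.

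Without replicates against their sex label the counts were 6 in females at 28 and 14 at 20 months, 3 for males against females, 3 for the male batches and 4 for the difference of the sexes. Of all genes 1897, 5778, 387, 570 and 101 passed. Without those with skin or marrow markers they were 9 in females at 28 months, 9 in females from 20 to 28 months, 6 for the female batches and 2 for the difference, and without both sets 6 (females at 28 months), 3 (males against females), 4 (male batches) and 3 (difference). The genes passing numbered 1984, 4213, 2705 and 240, and without both sets 1304, 545, 825 and 450. Leaving out 1 replicate gave 9 to 13 (males) and 4 to 19 (females) at 28 months, 23 to 25 and 14 to 22 at 20 months, 9 to 19 and 0 to 0 at 12 months, 6 to 8 and 9 to 14 from 20 to 28 months, 0 to 0 for CaAKG, 0 to 1 for males against females, 0 to 1 and 5 to 10 for the batches and 0 to 7 for the difference of the sexes. The offsets reversed 7 calls: Ppp1r15b (-0.042) and Dnajc3 (-0.134) in females and Canx (-0.050) and Dnajc3 (-0.428) in males at 20 months, and from 20 to 28 months Dnajc3 in males (0.13) and in females (0.235) and Ppp1r15b in females (0.143). The correlation of Atf4 with Ddit3 was 0.373 and passed with the mitochondrial genome left out, and that of Atf4 with Asns was -0.044 and did not pass without both sets of replicates.

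Replicate numbers are shared by groups but do not pair the samples: correlations of same-numbered samples ran from -0.267 to 0.309. With a replicate block 25 members were called in males and 25 in females at 20 months, 5 in males and 0 in females at 12 months, 0 for CaAKG and 0 for males against females. Of all genes 7568, 7197, 825, 0, 0 and 122 were called. Changes of members under about 1 CPM, such as Slc7a11, are limited by depth.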
